A study of Rattus norvegicus with 4 samples.

Results

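The 5 miRNAs described here, rno-miR-21-5p, rno-miR-221-3p, rno-miR-222-3p, rno-miR-210-3p and rno-miR-224-5p (below without the prefix for rat), are microRNAs widely reported as raised in liver cancer, and were taken by their exact array names from the 719 rat miRNAs on the array. Exosomes, membrane vesicles shed by cells, were isolated from the serum of male rats, and the Cy3-labelled RNA of each group was read on 1 Agilent miRNA array in 1 colour. The naive group (day 0) was not injected, and the light (day 35), moderate (day 49) and severe (day 49) groups came from rats injected with a hepatocellular carcinoma (HCC) cell line, per the labels' protocol, whereas the series' design text speaks of HCC exosomes and of 1 dose. The words light, moderate and severe come from the sample titles, and the cell line is not named in the labels. The design text speaks of 4 independent experiments per time with different baffolo rats (so spelled). The data analysed are 4 arrays, and pooling of RNA from several rats is not stated. Where 4 values are listed, they run in the order naive, light, moderate, severe. No replicate array was analysed here, so no p-value is given, every error (±) is a standard error over replicate spots of 1 array, and each difference is one between 2 arrays. Day and disease grade differ together between the naive array and each later array and cannot be told apart, and in serum fewer vesicles from a cell type cannot be told apart from less of a miRNA per vesicle.

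A miRNA acts by pairing its seed, the bases 2 to 8 from its 5′ end, with sites in messenger RNAs, which are then silenced. miR-21-5p represses the tumour suppressor PDCD4 and is abundant in many cell types. miR-221-3p and miR-222-3p, made from neighbouring genes, repress the cell cycle inhibitor p27. miR-210-3p is induced by hypoxia-inducible factor when oxygen is low, and miR-224-5p is made from within the gene of a GABA receptor subunit and is frequently raised in liver tumours.

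The mature sequences are shown, 5′ to 3′ with the seed in capitals, because the seed decides which members could act on the same targets. All 5 members matched RefSeq's miRNA table (assembly GRCr8, not the rn4 annotation of the array).
miR-21-5p: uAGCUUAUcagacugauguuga
miR-221-3p: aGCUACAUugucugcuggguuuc
miR-222-3p: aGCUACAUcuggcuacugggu
miR-210-3p: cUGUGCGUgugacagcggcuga
miR-224-5p: cAAGUCACuagugguuccguuu
The 5 members carry 4 different seeds. miR-221-3p and miR-222-3p share theirs and are identical over the first 8 bases, and none of the other 3 shares its seed with another of the 724 mature entries in the table. On GRCr8, miR-222-3p (chrX:6022682-6022702) and miR-221-3p (chrX:6023246-6023268) lie on the plus strand with their first bases 564 bases apart, within the span of uncharacterised loci. miR-224-5p (chrX:155107183-155107204, minus strand) lies within the span of Gabre. miR-21-5p (chr10:71902653-71902674, minus strand) lies within no other gene of the RefSeq gene table. miR-210-3p (chr1:205755946-205755967, minus strand) lies within the spans of an uncharacterised locus and of the miRNA gene Mir3574. Strand was not used in these overlaps, and exons and introns were not analysed here.

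Of the 5 members, the scanner software detected the same 3 on all 4 arrays, miR-21-5p, miR-210-3p and miR-221-3p, and miR-222-3p and miR-224-5p on none. For comparison, 111 of the 719 miRNAs had a detection call on every array and 537 had none anywhere. Each member has 2 probes of 10 spots each, so 20 spots per array. miR-21-5p and miR-210-3p had 20 of 20 spots well above background on every array. miR-221-3p stood at the edge of detection, with 10, 4, 20 and 0 such spots of 20. With detection defined by at least 0.5 of the spots, it was detected on the naive and moderate arrays alone.

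**Figure D1:**
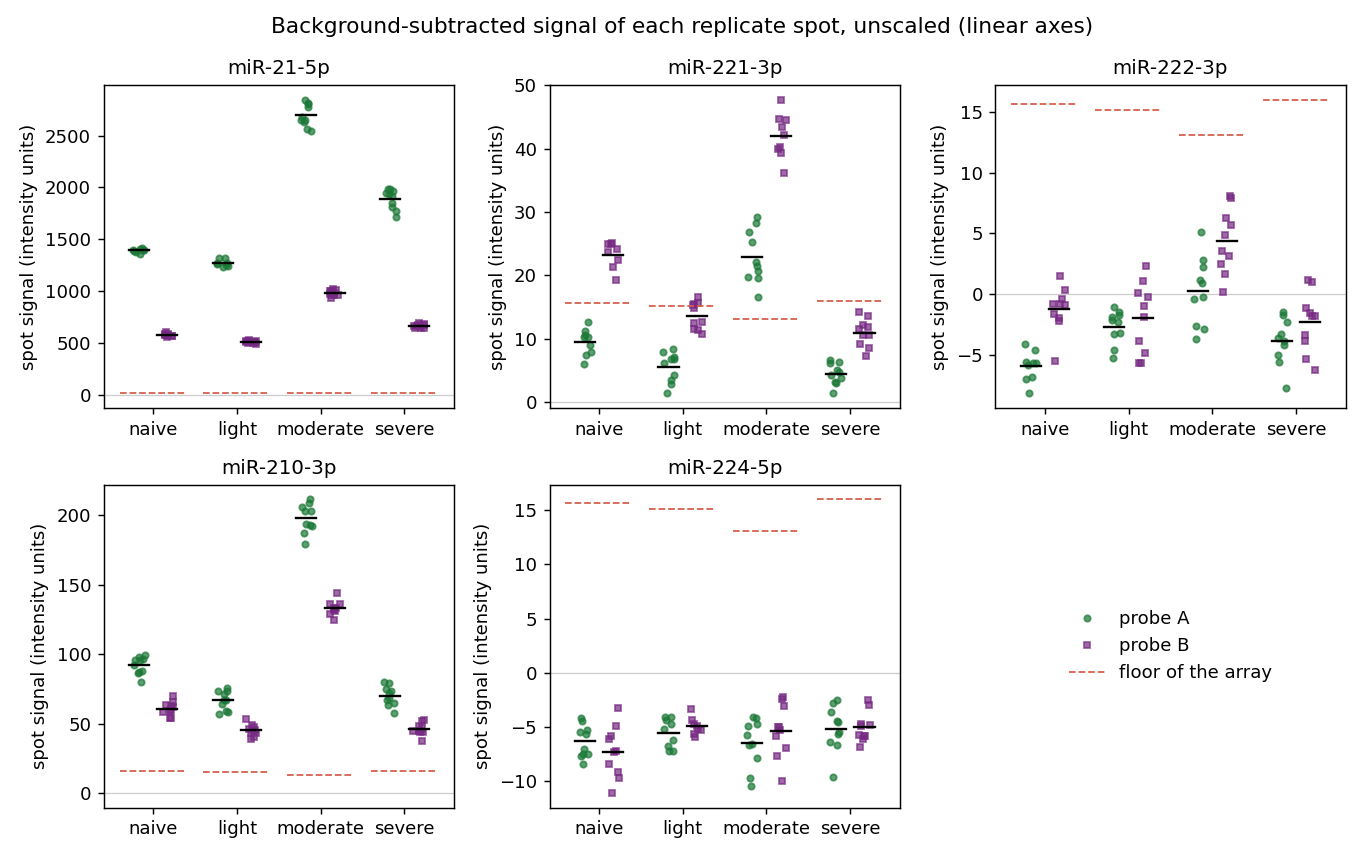
Background-subtracted signal in intensity units (vertical axis, linear, a different range in each panel) of every spot used, for the 5 miRNAs on the 4 arrays (horizontal axis). Circles and squares are the 2 probes, black bars their means, and dashed lines the floor of each array; miR-21-5p and miR-210-3p lie above the floor on every array, miR-221-3p crosses it, and miR-222-3p and miR-224-5p lie below it.

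The signal of miR-21-5p, the mean over spots summed over its 2 probes, was 1969 ± 7.90, 1778 ± 12.1, 3675 ± 34.7 and 2551 ± 30.5 intensity units. As deposited, these signals were thus lowest on the light array and highest on the moderate array. The arrays differed in brightness, so each was divided by the 75th percentile of its signals for those 111 miRNAs, which was 666, 356, 954 and 415 units. After that scaling miR-21-5p stood at 2.96, 4.996, 3.85 and 6.14 times the percentile. The order of the scaled levels was therefore naive, moderate, light, severe, and each gap was at least 14.17 times its spot error. In the different order before scaling each gap was at least 13.15 times its spot error, so spot error does not decide between the orders. It leaves out any error of the scaling and any spread between rats or arrays.

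Against naive, the log2 difference of miR-21-5p was 0.76 ± 0.01 for light, 0.38 ± 0.01 for moderate and 1.06 ± 0.02 for severe. Severe passed 2-fold, the size used throughout for calling a difference, at 2.08-fold higher, though not without scaling, with quantile normalization, with normexp or with the scanner software's total signal. It was 1 of the 2 members measured on the naive and severe arrays, and 22% of the 109 miRNAs measured there also passed 2-fold upwards, so that a difference of this size was common on the severe array. Larger differences than that of miR-21-5p were seen for 21 of those 109 miRNAs, for 10 of 117 in light against naive and for 52 of 126 in moderate against naive. At day 49 the severe array exceeded the moderate array by log2 0.67 ± 0.02, or 1.59-fold, where 22.6% of 115 miRNAs passed 2-fold upwards and 20% downwards. Against light, miR-21-5p was −0.37 ± 0.02 for moderate and 0.30 ± 0.02 for severe, and the former turned to 1.05 without scaling and 1.22 with spike-ins. As scaled here 0 members passed 2-fold against light, while 6.84% of 117 miRNAs were higher and 6.84% lower on moderate, and 21.2% of 104 were higher and 32.7% lower on severe.

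The brighter probe of miR-21-5p gave log2 differences of 0.77, 0.44 and 1.12 from naive on the light, moderate and severe arrays, and the dimmer probe gave 0.72, 0.24 and 0.88. The probes had the same direction in all 3 comparisons, but the dimmer one stayed under 2-fold on the severe array. Their gap on that array exceeded the spot errors of 0.02 for each.

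The size of the miR-21-5p difference depended on the scaling. Without scaling severe exceeded naive by log2 0.37, and with quantile normalization the log2 difference was 0.78. With the control features dmr_285 and dmr_31a, treated as spike-ins, as the scale it was 1.06, but those features themselves stood at 0.788 and 0.488 times their naive signal on the severe array. Against naive, miR-21-5p was higher on the severe array under all 12 settings, from 0.37 to 1.24, and past 2-fold in 8 of them. The settings share most steps, and the setting with another floor could not change the values of miR-21-5p. It alters only which miRNAs count as measured. On the light array it was higher in 9 of 12 settings, and lower without scaling (−0.15) and with spike-ins (−0.15), while quantile normalization gave 0. Moderate against naive ran from 0 with quantile normalization to 0.90 without scaling and 1.07, past 2-fold, with spike-ins. Severe against moderate was −0.53 without scaling and −0.0032 with spike-ins. The place of miR-21-5p among all measured miRNAs, counted from the largest upward difference, moved between 19 and 24 of 100 to 117 miRNAs over the settings in severe against naive. It moved from 9 to 57 of 100 to 121 in light against naive and from 18 to 62 of 101 to 139 in moderate against naive, the highest of the former with quantile normalization and the lowest of the latter with normexp.

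**Figure D2:**
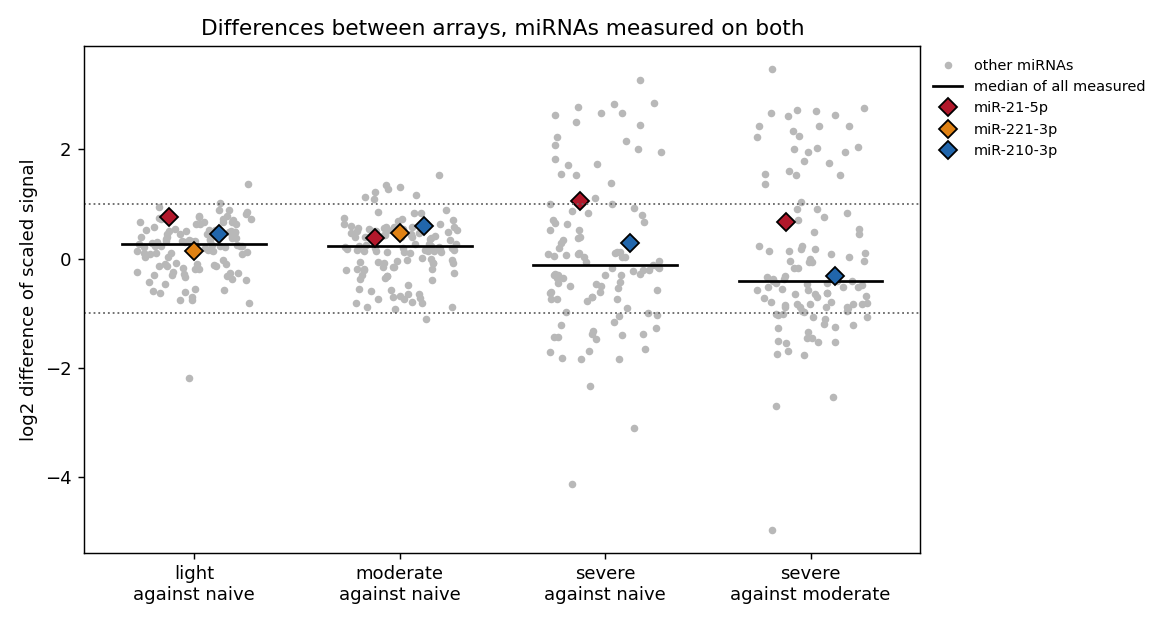
Log2 difference of scaled signal (vertical axis) for miRNAs measured on both arrays of each of 4 comparisons (horizontal axis). Grey points are other miRNAs, black bars the median of all, dotted lines 2-fold, and diamonds the members; miR-21-5p on the severe array against naive, at 1.06, is the one diamond past 2-fold, amid a spread wider than in light or moderate. The miR-221-3p diamond for light rests on probes under the floor.

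miR-210-3p, the hypoxia-induced member, read 153 ± 2.54, 112 ± 2.53, 331 ± 3.73 and 116 ± 2.65 intensity units. Before scaling the moderate array stood above the others, and light and severe differed by 4.16 ± 3.67 units, a gap of about the size of its spot error. Scaled, it stood at 0.229, 0.314, 0.347 and 0.279 times the percentile, with naive lowest and moderate highest. The log2 differences from naive were 0.45 ± 0.04 (light), 0.60 ± 0.03 (moderate) and 0.28 ± 0.04 (severe), none of them past 2-fold, where 1.71%, 6.35% and 22% of all measured miRNAs were at least 2-fold higher and 0.855%, 0.794% and 19.3% lower. The medians of all measured miRNAs were 0.27, 0.22 and −0.11, so miR-210-3p lay 0.18, 0.38 and 0.40 above them.

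The probes of miR-210-3p gave nearly equal differences, 0.44 and 0.47 for light, 0.59 and 0.61 for moderate and 0.29 and 0.27 for severe. The moderate array stood above naive in all 12 settings, from 0.26 to 1.28, though the setting with another floor could not change the value. The severe difference turned to −0.40 without scaling, and the light difference to −0.45 without scaling and −0.46 with spike-ins. Severe against moderate was −0.31 ± 0.04, and over the settings it ran from −1.51 without scaling, past 2-fold, and −0.99 with spike-ins to 0.04 with quantile normalization.

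The ratio of miR-21-5p to miR-210-3p within an array needs no scaling by a single factor. Against naive, miR-21-5p moved above miR-210-3p by log2 0.30 ± 0.04 on the light array and 0.77 ± 0.04 on the severe array, and below it by 0.22 ± 0.03 on the moderate array (difference −0.22). Between the arrays of day 49 the gap was 0.99 ± 0.04. Of the alternatives, quantile normalization, normexp, the brightest probe of each miRNA and outlier spots kept moved these gaps. The others left them nearly unchanged, and dividing an array by a factor cannot change them. Under the alternatives that moved it, in that order, the gap was 0.34, 0.57, 0.83 and 0.79 for severe against naive. For severe against moderate it was 0.74, 0.41, 0.98 and 0.995. In light against naive it turned to −0.26 with quantile normalization, and in moderate against naive to 0.16 with normexp. miR-21-5p was thus high relative to miR-210-3p on the severe array as reported, by more than the spot error, and under each alternative that moved the gap.

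**Figure D3:**
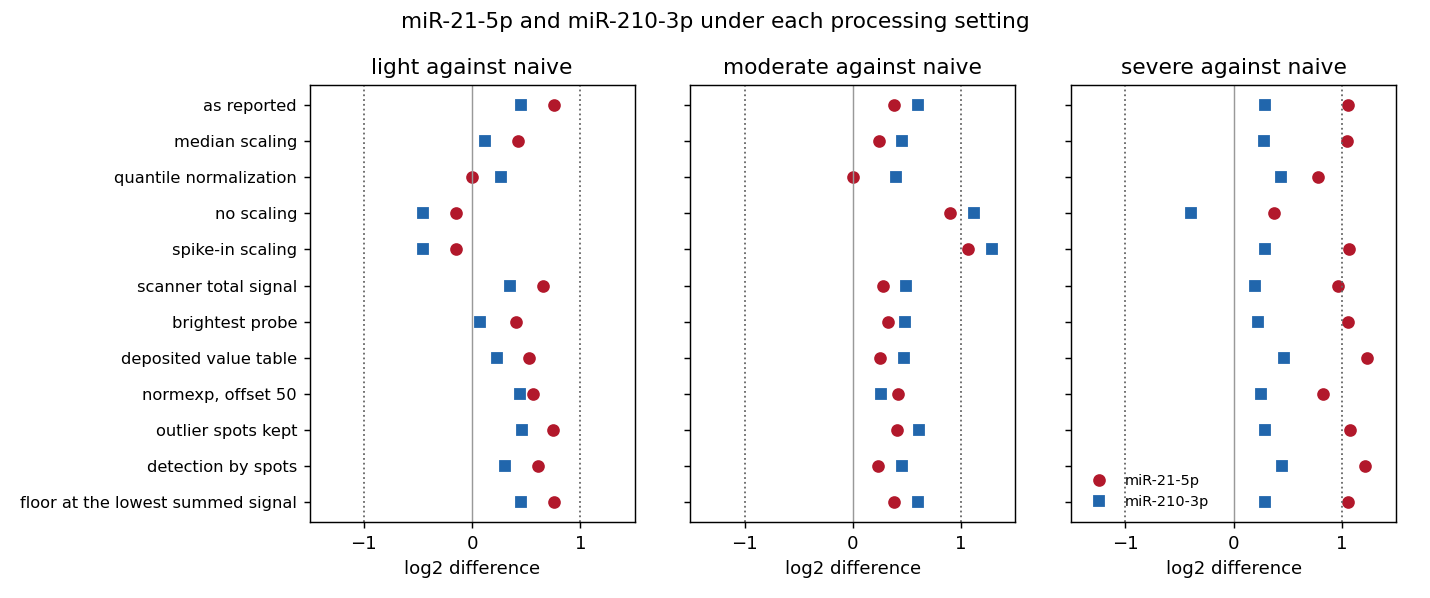
Log2 difference from the naive array (horizontal axis) of miR-21-5p (circles) and miR-210-3p (squares) under the reported setting and 11 alternatives (vertical axis), for light, moderate and severe. Dotted lines mark 2-fold; on the severe array the circles run from 0.37 to 1.24, all to the right of 0, and on the light array the points without scaling and with spike-ins lie to the left of 0.

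miR-221-3p, of the cell cycle pair, was dim, at 32.7 ± 1.01, 19.2 ± 1.01, 65.0 ± 1.76 and 15.3 ± 0.87 intensity units. A value counted as measured if the miRNA had a detection call and its signal was not under the array's floor. The floor, the lowest mean among probes that had 0.5 or more of their spots well above background, was 15.6, 15.1, 13.1 and 16.0 units. The severe array fell under it, so that miR-221-3p counted as measured on 3 arrays. On the light array its sum passed but each probe alone lay under the floor, so no difference is given for light. The log2 difference of moderate from naive was 0.48 ± 0.06. As a bound against the floor, the severe array was at least 1.27-fold lower than naive and at least 1.77-fold lower than moderate. The floor is the signal of 1 probe and the value a sum of 2, so these bounds are not strict.

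The dimmer probe of miR-221-3p carried 9.46, 5.53, 23.0 and 4.40 units and the brighter 23.2, 13.6, 42.1 and 10.9, and the moderate array was the one where both had 10 of 10 spots well above background. The dimmer probe had 0 of 10 such spots on the other 3 arrays. The brighter probe had 10, 4, 10 and 0, and gave a log2 difference of 0.34 ± 0.06 for moderate against naive. The difference between moderate and naive was −0.18 with normexp background correction, which adds 50 units to each spot, and 1.16 with spike-ins. Severe against naive was 0.28 with normexp. The negative control spots averaged between 1.22 and 2.70 units with an SD of up to 2.12 on the 4 arrays.

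miR-222-3p, which shares its seed and neighbourhood with miR-221-3p, was not well above background: 0 of 80 spots over the 4 arrays passed. Its signals were −7.13 ± 0.72, −4.63 ± 1.01, 4.64 ± 1.21 and −6.14 ± 0.97 units. The brightest spot, on the moderate array, read 8.07 units, under the array's floor of 13.1, and the brightest negative control spot there read 6.96. miR-224-5p had 0 of 80 spots well above background, and sums of −13.7, −10.5, −11.9 and −10.2 units, all below 0. Neither has a fold, and at this signal over background their presence was not detectable.

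The 5 opposite arms, cut from the same precursors and usually degraded, were all on the array and not detected on any of the 4. miR-21-3p, miR-221-5p, miR-222-5p, miR-210-5p and miR-224-3p had 0 of 400 spots well above background, and probe means from −10.2 to 3.32 units. Of the arms of these precursors, signal above background therefore came from the 5p arm of miR-21 and the 3p arms of miR-210 and miR-221. miR-590-5p, miR-452-5p and miR-452-3p, chosen as possible seed or cluster relatives, had no row on the array under those names.

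The miRNAs with the pattern most like that of a member were taken from the 104 measured on all arrays, by the Euclidean distance between log2 scaled signals centred on each miRNA's mean over the 4 arrays. For miR-21-5p they were miR-130a-3p at a distance of 0.13, miR-500-3p at 0.36 and miR-29a-3p at 0.44, against a median of 1.29 over 103 miRNAs. miR-130a-3p read 1724, 1457, 3393 and 2155 units, with log2 differences of 0.66, 0.46 and 1.004 from naive, beside 0.76, 0.38 and 1.06 for miR-21-5p. For miR-210-3p they were miR-15b-5p at 0.094, miR-378b at 0.16 and miR-23a-3p at 0.17, against a median of 0.85. miR-15b-5p read 1443, 1047, 2971 and 1141 units, with log2 differences of 0.44, 0.52 and 0.34. miR-21-5p and miR-210-3p lay 0.74 apart; 12 other miRNAs were nearer to miR-21-5p and 44 nearer to miR-210-3p. Each distance rests on 4 arrays, and dim or bright arrays shift all miRNAs alike before scaling.

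**Figure D4:**
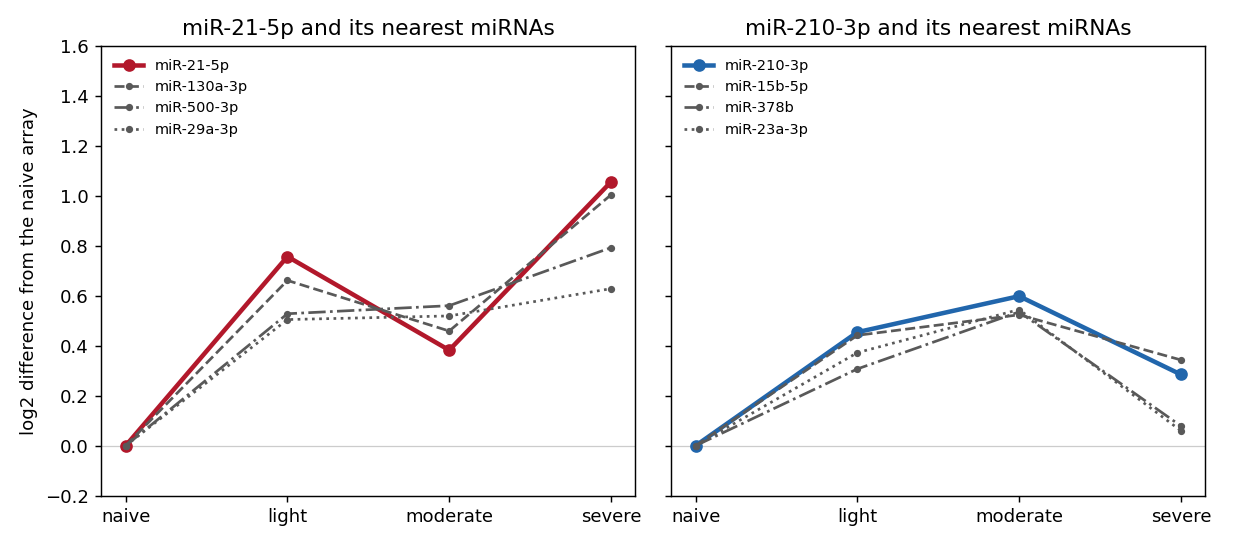
Log2 difference of scaled signal from the naive array (vertical axis) for each array (horizontal axis), for miR-21-5p (left) and miR-210-3p (right) in colour and the 3 nearest miRNAs of each in grey. miR-21-5p and miR-130a-3p have, as scaled here, a dip at moderate and reach 1.06 and 1.004 at severe, while miR-210-3p and its neighbours are highest at moderate; without scaling the moderate array is highest for miR-21-5p too.

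Beside the members, 19 of 20 other miRNAs reported as raised in liver cancer were on the array. Of these, 12 were measured on the naive and light arrays, with 0 past 2-fold, where 1.71% of all measured miRNAs were higher and 0.855% lower. Their median log2 difference was 0.37, against 0.27 for all miRNAs. Of 13 measured on naive and moderate, miR-10b-5p was at least 2-fold higher (1.23) and 0 lower, with a median of 0.17 against 0.22. The shares of all measured miRNAs were 6.35% higher and 0.794% lower. Of 13 measured on naive and severe, miR-130b-3p was higher (2.23) and miR-18a-5p (−1.06) and miR-423-5p (−2.33) were lower, with a median of −0.06 against −0.11 for all miRNAs. A further 2, not detected on the naive array, were higher on the severe array as bounds, miR-92b-3p by at least 4.66 and miR-183-5p by at least 1.64 on the log2 scale. The floor is the signal of 1 probe and each value a sum over probes, so these bounds are not strict. miR-183-5p read 30.5 units on the severe array, against a naive floor of 15.6. Its place past 2-fold thus depends on the floor and the scaling. With these bounds 3 were past 2-fold upwards and 2 downwards. The list therefore had members on either side of the naive level on the severe array. The shares of all 109 miRNAs measured on both arrays past 2-fold were 22% upwards and 19.3% downwards. These shares include no bounds, so they compare with the counts among the 13 and not with those that add bounds.

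Cell type markers also differed between the arrays, and their part in the values of the members was not tested. The 3 red-cell miRNAs on the array summed to 52.6, 67.9, 57.8 and 41.2 times the percentile, and 3 of 3 were detected on each. Of these, miR-144-3p went against the sum on the severe array, at 1.82 against naive (169 to 371 units before scaling), and was 1.38 on the light array. The 3 miRNAs listed for platelets summed to 9.92, 13.8, 15.4 and 5.26, with miR-191a-5p not detected on the light and severe arrays. Nearly all of that sum was miR-223-3p, at 6534 of 6609 units on the naive and 2161 of 2184 on the severe array before scaling. The sum thus follows 1 miRNA rather than the 3 listed. The 5 leukocyte miRNAs summed to 2.77, 3.78, 2.40 and 1.57, all detected on each array. On the severe array the log2 differences from naive were −3.11 for miR-150-5p and −1.33 for miR-342-3p, and 0.03 for miR-142-3p. The pair of hepatocyte miRNAs summed to 2.17, 0.795, 1.496 and 2.42, but its members differed: miR-122-5p was −2.18, −0.74 and −0.75 against naive on the later arrays, and miR-192-5p −0.19, 0.01 and 1.56. Muscle miRNAs summed to 1.88, 1.18, 3.60 and 0.0948, with 3, 2, 4 and 1 of 4 detected. miR-1-3p was 1.53 on the moderate array and, as a bound that is not strict either, −2.35 or lower on the severe array. miR-133b-3p was −4.14 on the severe array. Among these lists the red-cell, platelet, leukocyte and muscle sums were lowest on the severe array, as scaled here and before scaling. That array had the highest scaled miR-21-5p. Before scaling, miR-21-5p and those sums were all highest on the moderate array, and a link between them was not tested.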

How the data were processed

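The authors deposited, per the file headers, the output of Agilent Feature Extraction 10.7.3.1, where version 9.1 stands in the submitters' processing notes. Per the file headers the deposited spot intensity is background-subtracted with spatial detrending and not scaled between arrays, and the 4 arrays carry 1 scan time. The deposited gene-level files give a total signal intensity per miRNA, set to 0.1 where not detected, and a detection call. The deposited value table holds the same totals, on a linear scale and unscaled, for 102 miRNAs, 2 of them members; how they were chosen is not given in the sources used here. The median of its columns was 189, 107, 304 and 114 (naive, light, moderate, severe). The labels' labelling protocol describes amplification of cRNA, a method for messenger RNA, which was not resolved.

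Each array had 14380 miRNA spots, of which 386, 387, 386 and 525 in the same order were marked as outliers and left out; 0 were saturated. Spots were averaged per probe, probes summed per miRNA, sums scaled by a 75th percentile (that of the miRNAs detected on all arrays), and log2 taken (Python 3.11.15, numpy 2.4.6, pandas 2.3.3; normexp with limma 3.58.1 on the median spot signal, since no mean is in the files). The calculation was tested on simulated data. The members and lists were chosen with earlier results of these data known. The members, their opposite arms and relatives and the 3 nearest miRNAs of each member measured on all arrays are named. Of the other lists, miRNAs past 2-fold from naive, bounds included, and miR-142-3p, miR-191a-5p and miR-223-3p were named after their values were seen. miR-155-5p and miR-486 had no row under those names. The number of arrays limits the precision.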

Additional observations from a re-analysis of the deposited data

How the results depend on the processing

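Of 11 alternatives, the number of members at least 2-fold from another array changed under 5. As reported, 1 member (miR-21-5p) was higher on the severe array than on naive and 0 passed in the other comparisons. That number was 0 with quantile normalization, without scaling, with the scanner software's total signal and with normexp. Without scaling 1 member (miR-210-3p) was at least 2-fold higher on the moderate array than on naive. In that setting 1 (miR-221-3p, as a bound of log2 −1.03 that is not strict) was lower on the severe array than on naive. There 2 (miR-210-3p and, as a bound, miR-221-3p) were lower on severe than on moderate. With spike-in scaling 3 were higher on the moderate array than on naive, and 1 (miR-221-3p, as a bound) was lower on severe than on moderate. With the total signal 1 (miR-221-3p) was lower on severe than on moderate, beside 31 of 124 miRNAs. The counts of all miRNAs include no bounds. Against light, 3 members were at least 2-fold higher on the moderate array without scaling, beside 99 of all 117 miRNAs, and with spike-ins, beside 104 of 117. These 3 include miR-221-3p, each of whose probes lay under the floor on the light array. On the severe array 1 member was higher than on light with spike-ins, beside 32 of 104 miRNAs. As reported, 0 members passed against light. The scalings other than quantile normalization move all miRNAs of an array together; other causes, those of the shifts with normexp among them, were not tested. Without scaling the median difference of all miRNAs was 0.74 in place of 0.22 (moderate against naive) and −0.79 in place of −0.11 (severe against naive). For light against naive, 2 miRNAs were at least 2-fold higher and 1 lower as reported, 1 and 5 with the median, 0 and 32 without scaling, 0 and 33 with spike-ins and 1 and 1 with quantile normalization. Over the same scalings the splits of all miRNAs at least 2-fold higher and lower on the moderate array were 8 and 1 as reported, 6 and 4 with the median, 36 and 0 without scaling, 57 and 0 with spike-ins and 5 and 7 with quantile normalization, and on the severe array in the same order 24 and 21, 23 and 22, 17 and 42, 24 and 21, and 22 and 25, and for severe against moderate 26 and 23, 28 and 17, 13 and 78, 20 and 62, and 28 and 20. The number of members detected fell from 3 to 2 on the light and severe arrays with detection by spots, and was 3 on the other 2. The 75th percentile over all miRNAs could not serve as a scale because it was −0.74 on the light array. Values near the floor, those of miR-221-3p on the naive, light and severe arrays among them, are limited by signal over background. No paired analysis was possible because each group has 1 array, and for the same reason no array could be left out.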

Other observations

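The deposited value table lists 99 of the 111 miRNAs that were detected on all arrays. Of the 3 members detected on all arrays it holds miR-21-5p and miR-210-3p, and not miR-221-3p, whose total signals in the gene-level files read 15.7 (naive), 9.05 (light), 44.5 (moderate) and 7.61 (severe).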
